A study of Mus musculus with 19 samples.

Results

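The genes described here encode the platelet-derived growth factors (PDGFs), their beta receptor and proteins by which pericytes and related mural cells are recognised. The rule named 10 genes, namely the ligand genes Pdgfa, Pdgfb, Pdgfc and Pdgfd, the receptor genes Pdgfra and Pdgfrb, and the mural genes Abcc9, Mcam, Cspg4 and Des. Each gene was to be represented by its brightest probe set among those annotated to exactly 1 gene symbol, which left 30142 genes in the array table. Of the 10 genes 9 were measured by this rule, each by 1 probe set. The remaining gene, Pdgfra, had only a probe set that also listed the microRNA gene Mir7025, so it was not analysed here.

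Expression was measured on Clariom D (MTA 1.0) arrays in the infrarenal aorta of C57BL/6J mice, an inbred laboratory strain, operated at 10 weeks of age. The aorta was infused for 5 min at 120 mmHg with saline (sham) or with saline holding porcine pancreatic elastase (PPE) at 2.5 U/mL, and was taken 7 days later. Elastase digests the elastin of the vessel wall, and this infusion is a widely used model of abdominal aortic aneurysm. There were 4 PPE and 3 sham females and 7 PPE and 5 sham males, with 1 mouse on each array, and no genetic change was labelled in any group. Both sham groups also underwent the clamping, aortotomy and pressurised infusion, so the comparison is with an operated and not with an untouched vessel. The small number of arrays limits the precision of every value.

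PDGFs are dimeric growth factors that act on the receptor tyrosine kinases PDGFR-alpha and PDGFR-beta. In the growing vessel wall endothelial cells release PDGF-B, which draws in pericytes and smooth muscle cells that carry PDGFR-beta. PDGF-A and PDGF-C act mainly on PDGFR-alpha and PDGF-D on PDGFR-beta. PDGF-C and PDGF-D are released in a latent form whose CUB domains must be cut off by proteases before the receptors are bound. In the adult aorta these receptors are borne by smooth muscle cells, by the pericytes of the small vessels of the outer wall and by fibroblasts.

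Values are log2 signals as deposited, and a difference of 1 is a 2-fold difference in signal. The median of an array over its probe sets was 6.17 to 6.31 in the 7 females and 5.61 to 5.85 in the 12 males, so levels were compared within a sex only. Smooth muscle markers gave list means of 12.86 to 14.03 in sham aortae of both sexes over 7 genes. Some arrays stood apart. Male sham 4 had a mean of 12.52 over 6 adipocyte markers and the remaining male sham arrays 7.72 to 8.58. Female sham 1 and female PPE 2 had means of 11.42 and 10.02 over 6 skeletal muscle markers, against 5.88 to 6.06 in the other female arrays, and male PPE 6 had 7.67 against 5.30 to 5.70 in the other male arrays.

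PPE was tested against sham in each sex with limma over all 19 arrays, and the call threshold was an adjusted p of 0.05 (Benjamini-Hochberg, over all 30142 genes). In males 7 of the 9 measured genes were called lower after PPE and 0 higher, with a median log2 difference of −0.85 against 0.01 over all genes. Over all genes tested in males 19.7% were called, 9.98% lower and 9.67% higher. In females 3 of 9 were called lower, namely Pdgfd, Abcc9 and Mcam, and 0 higher, with a median of −0.70 against −0.02 over all genes. Over all genes tested in females 4.22% were called, 1.45% lower and 2.77% higher. Unadjusted p-values were below 0.05 for 8 of the 9 genes in males and for 5 in females. The share of all genes with an unadjusted p below 0.05 was not counted, here or for the lists below. The female calls rest on few arrays, since 0 of the 9 genes passed without female sham 2, when adjusted p was 0.0631 for Pdgfd, 0.0906 for Abcc9 and 0.0862 for Mcam. Their log2 differences were then −1.32, −0.98 and −0.57.

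**Figure D1:**
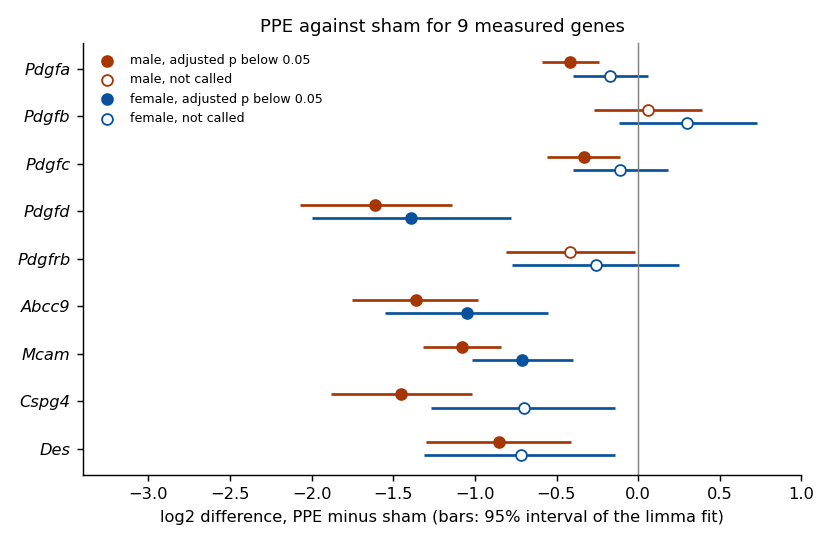
Log2 difference between PPE and sham (x axis) for the 9 measured genes (y axis), with the 95% interval of the limma fit as bars, in males (brown) and females (blue), filled where the adjusted p was below 0.05. Pdgfd, Abcc9, Mcam and Cspg4 lie farthest to the left in males, from −1.61 to −1.08, while Pdgfb lies at 0.06 in males and 0.30 in females.

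Among the ligands Pdgfd (chromosome 9, 6168363 to 6534284, mm10) moved most. The 3 female sham arrays read 11.58, 11.98 and 11.95, and the 4 female PPE arrays 10.48, 10.28, 10.02 and 11.01. The 5 male sham arrays read 12.02, 11.41, 10.85, 10.59 and 11.30, and the 7 male PPE arrays ran from 9.07 to 9.98 with a median of 9.72. Every PPE array lay below every sham array of its sex, as held for 4.68% of all genes in males and 8.86% in females. PPE arrays lay above all sham arrays for 4.69% of genes in males, which makes 9.37% without overlap in either direction. Pdgfd fell by 1.61 ± 0.22 (SE, limma, n = 5 and 7) on the log2 scale in males, a 3.05-fold fall (adjusted p = 4.1e-05). In females it fell by 1.39 ± 0.29 (n = 3 and 4), a 2.62-fold fall (adjusted p = 0.0103, and 0.0631 without female sham 2). The 95% interval was −2.07 to −1.14 in males and −2.0 to −0.78 in females. Adjusted p in males lay between 1.31e-05 and 0.00765 over all alternatives run.

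Pdgfc (chromosome 3, 81036416 to 81214040), the other ligand gene with a CUB domain, gave small differences. Female sham arrays read 9.97, 9.70 and 9.60 and female PPE arrays 9.81, 9.41, 9.62 and 9.74. Male sham arrays read 9.64, 9.43, 9.58, 9.32 and 9.89, and male PPE arrays ran from 9.05 to 9.56 with a median of 9.23. The groups overlapped in both sexes. In males Pdgfc fell by 0.33 ± 0.11 (1.26-fold, limma adjusted p = 0.0338), and this call was near the threshold. It was lost without male sham 1 (adjusted p = 0.0782), 3 (0.0547) or 5 (0.11), without male PPE 2 (0.0593), 3 (0.0512), 5 (0.0639) or 6 (0.0689), and with each array centred on its median (0.094). It was also lost with the male arrays fitted alone (0.0555) and without male sham 4, male sham 5 and male PPE 1 together (0.0693). In females the log2 difference was −0.11 ± 0.14 (95% interval −0.40 to 0.18, adjusted p = 0.827).

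The reference sequence before the start of these genes is shown because both ligands share a protein design and yet gave such unlike values, with Mcam added as the mural gene with the lowest p in males. RefSeq (GRCm38.p6) windows were at hand for 8 of the 10 genes, and each window was searched on both strands over the 250 bases before the listed start. Capitals mark the CArG box, the element bound by serum response factor, the letters TATAAA, and GGGCGG (read as CCGCCC on the other strand). Only bases before the first annotated base of each gene are printed, 5′ to 3′ along the gene, from chr9:6168236-6168362 for Pdgfd, chr3:81036166-81036415 for Pdgfc and chr9:44134408-44134657 for Mcam, all on the plus strand.
Pdgfd: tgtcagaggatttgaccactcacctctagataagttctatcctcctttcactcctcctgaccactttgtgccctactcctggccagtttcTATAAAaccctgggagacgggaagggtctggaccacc
Pdgfc: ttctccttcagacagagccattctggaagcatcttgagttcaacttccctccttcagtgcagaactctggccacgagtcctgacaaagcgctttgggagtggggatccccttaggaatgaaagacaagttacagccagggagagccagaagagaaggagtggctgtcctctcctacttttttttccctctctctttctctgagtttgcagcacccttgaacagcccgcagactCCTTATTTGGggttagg
Mcam: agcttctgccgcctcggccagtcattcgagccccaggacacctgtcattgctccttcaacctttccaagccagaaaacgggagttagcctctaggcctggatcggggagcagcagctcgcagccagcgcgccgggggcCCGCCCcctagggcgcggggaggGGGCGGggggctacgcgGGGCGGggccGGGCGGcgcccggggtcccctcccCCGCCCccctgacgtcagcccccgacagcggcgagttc
Pdgfc held a CArG box that begins 17 bases before its start, and the windows of Pdgfa, Pdgfd, Pdgfra, Abcc9, Mcam, Cspg4 and Des held none. Of all 32851 windows 1.47% held one. The Pdgfd window held TATAAA, as 12.4% of all windows did. The Mcam window held GGGCGG at 5 places and had a GC content of 73.6% against 53.6% for Pdgfd and a median of 52.4% over all windows, of which 32.7% held GGGCGG. These matches describe the letters in the window only.

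The classical ligand genes differed from Pdgfd. Pdgfa (chromosome 5, 138976014 to 139000792), a ligand gene of PDGFR-alpha, read 8.35, 8.06 and 8.28 in female sham and 8.21, 7.90, 8.10 and 8.04 in female PPE arrays. In males the sham arrays read 7.88, 7.92, 8.08, 7.66 and 7.99, and the PPE arrays ran from 7.34 to 7.71 with a median of 7.52. The groups overlapped in both sexes. Pdgfa fell by 0.42 ± 0.08 in males (1.33-fold, limma adjusted p = 0.00133) and it remained called whichever of the 19 arrays was left out, with adjusted p between 0.000373 and 0.00493. In females it stood at −0.17 ± 0.11 (95% interval −0.40 to 0.06, adjusted p = 0.563).

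Pdgfb (chromosome 15, 79995865 to 80024614), the ligand gene that endothelial cells and platelets express and that guides mural cells, was called in neither sex. Female sham arrays read 8.39, 8.23 and 8.13 and female PPE arrays 8.52, 8.76, 8.41 and 8.53. All 4 PPE arrays lay above the 3 sham arrays, as held for 11.0% of all genes in females. PPE and sham did not overlap in either direction for 19.8%. The log2 difference was 0.30 ± 0.20 (95% interval −0.12 to 0.73, limma adjusted p = 0.579). Male sham arrays spread from 7.49 to 8.58 (7.49, 7.85, 8.14, 8.10 and 8.58), and the PPE arrays lay within almost the same range, from 7.74 to 8.57. The male difference was 0.06 ± 0.16 (−0.27 to 0.39, adjusted p = 0.857), and its sign turned without male sham 1 (−0.07) or male PPE 6 (−0.02). Platelet markers, which could mark another source of this RNA, passed in 0 of 4 measured members in either sex (unadjusted p below 0.05 for 1 in males and 0 in females). Over all genes 19.7% were called in males and 4.22% in females. The list means of the platelet markers ran from 6.50 to 7.84 in male sham and 6.91 to 8.02 in male PPE arrays. Itga2b and Gp9 had male group means of 5.70 to 5.81, within the male array medians of 5.61 to 5.85. Ppbp was imprecise (0.31 ± 0.61 in males). Pf4 was brighter, with male means of 8.93 in sham and 9.83 in PPE arrays. It was the 1 member with an unadjusted p below 0.05 in males (0.90 ± 0.37, limma adjusted p = 0.11), and stood at 0.21 ± 0.49 in females. A list in part dim and in part imprecise could not show whether platelets added to the Pdgfb signal, and this was not tested.

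**Figure D2:**
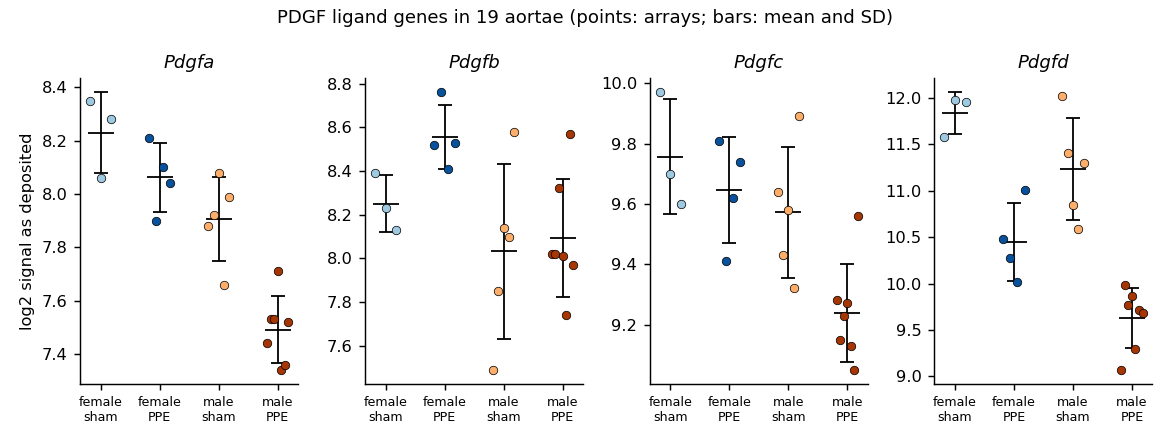
Log2 signal (y axis, its own scale in each panel) of the 4 ligand genes in each of the 19 arrays by group (x axis), with the mean and SD as bars. Pdgfd PPE arrays lie below every sham array of their sex (at most 9.98 against at least 10.59 in males), while the Pdgfb groups of males cover nearly the same range.

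The beta receptor gene Pdgfrb (chromosome 18, 61045127 to 61085067, mm10) was not called in either sex. Male sham arrays read 14.17, 14.06, 14.88, 13.35 and 14.43, and male PPE arrays ran from 13.44 to 13.98 with a median of 13.83. The lowest value of all was male sham 4, the array with the high adipocyte markers, and it lay below every male PPE array. The log2 difference in males was −0.42 ± 0.19 (95% interval −0.81 to −0.02, limma adjusted p = 0.141). Without male sham 4 it was −0.62 with adjusted p = 0.00589, and without male sham 3, the highest of the group, it was −0.24 with adjusted p = 0.37. It also passed with array weights (−0.51, adjusted p = 0.0276). The part of fat tissue in this result was not tested. Female sham arrays read 14.91, 14.50 and 14.82, and female PPE arrays 14.37, 14.40, 14.80 and 14.36, of which the third stood apart. The female difference was −0.26 ± 0.24 (−0.77 to 0.25, adjusted p = 0.743).

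Abcc9 and Mcam fell in both sexes. Abcc9 (chromosome 6, 142587862 to 142702766) encodes SUR2, the regulatory subunit of the ATP-sensitive potassium channel of pericytes and smooth muscle. Its female sham arrays read 14.50, 14.74 and 14.58 and its female PPE arrays 13.25, 13.71, 13.53 and 13.75. Male sham arrays read 14.37, 14.10, 14.09, 13.38 and 14.06, and male PPE arrays ran from 11.88 to 13.06 with a median of 12.65. No PPE array reached the lowest sham array of its sex, which in males was again sham 4. Abcc9 fell by 1.36 ± 0.18 in males (2.57-fold, limma adjusted p = 2.91e-05) and by 1.05 ± 0.24 in females (2.07-fold, adjusted p = 0.0167). The female call was lost without female sham 1 (adjusted p = 0.0508), 2 (0.0906) or 3 (0.054) or female PPE 1 (0.0602), with log2 differences from −1.10 to −0.94.

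Mcam (chromosome 9, 44134658 to 44142727) encodes CD146, an adhesion molecule of pericytes, smooth muscle and endothelium. Female sham arrays read 12.89, 13.37 and 12.99 and female PPE arrays 12.58, 12.41, 12.18 and 12.32. Male sham arrays read 13.00, 12.74, 12.65, 12.76 and 13.28, and male PPE arrays ran from 11.62 to 12.01 with a median of 11.81. PPE and sham did not overlap in either sex. Mcam fell by 1.08 ± 0.11 in males (2.11-fold, limma adjusted p = 3.36e-06), with adjusted p of at most 0.00298 under all alternatives run. In females it fell by 0.71 ± 0.15 (1.64-fold, adjusted p = 0.0104, and 0.0862 without female sham 2).

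Cspg4 (chromosome 9, 56865104 to 56899870) encodes NG2, the proteoglycan by which pericytes are most often stained. Male sham arrays read 9.08, 8.85, 8.53, 9.05 and 10.04, and male PPE arrays ran from 7.29 to 8.03 with a median of 7.80, with no overlap. It fell by 1.45 ± 0.21 in males (2.73-fold, limma adjusted p = 5.29e-05). Female sham arrays read 9.13, 9.32 and 9.51 and female PPE arrays 8.83, 8.18, 8.65 and 8.80, again with no overlap. The female difference of −0.70 ± 0.27 (95% interval −1.27 to −0.14) did not pass over all genes (adjusted p = 0.184), but did with array weights (0.0156) and without male sham 4, male sham 5 and male PPE 1 together (0.0354). Leaving out male arrays does not alter the female difference, only the residual variance fitted over all groups and the adjustment of p.

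Des (chromosome 1, 75360292 to 75368579) encodes desmin, the intermediate filament of muscle cells and many pericytes. Male sham arrays read 8.92, 8.97, 8.40, 9.10 and 9.24, and male PPE arrays ran from 7.85 to 8.40 with a median of 7.99, so that the groups met at 8.40. Des fell by 0.85 ± 0.21 in males (1.81-fold, limma adjusted p = 0.00737), and by 0.71 with adjusted p = 0.0792 when male sham 4 and 5 and male PPE 1 were left out together. In females the sham arrays read 9.69, 8.67 and 8.41 and the PPE arrays 7.81, 8.87, 7.94 and 8.18, with overlap. The highest array of each female group was the one with skeletal muscle markers, sham 1 at 9.69 and PPE 2 at 8.87. The difference of −0.72 ± 0.28 (−1.31 to −0.14) did not pass (adjusted p = 0.19), and it was −0.34 (adjusted p = 0.658) without female sham 1, −0.95 (0.0677) without female PPE 2 and −0.56 (0.294) without both. The part of skeletal muscle RNA in the Des values was not tested. Without the same pair of arrays Pdgfd stood at −1.46 (adjusted p = 0.0688), Abcc9 at −1.15 (0.0819) and Mcam at −0.82 (0.0508) in females, and 0 of the 9 genes passed.

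**Figure D3:**
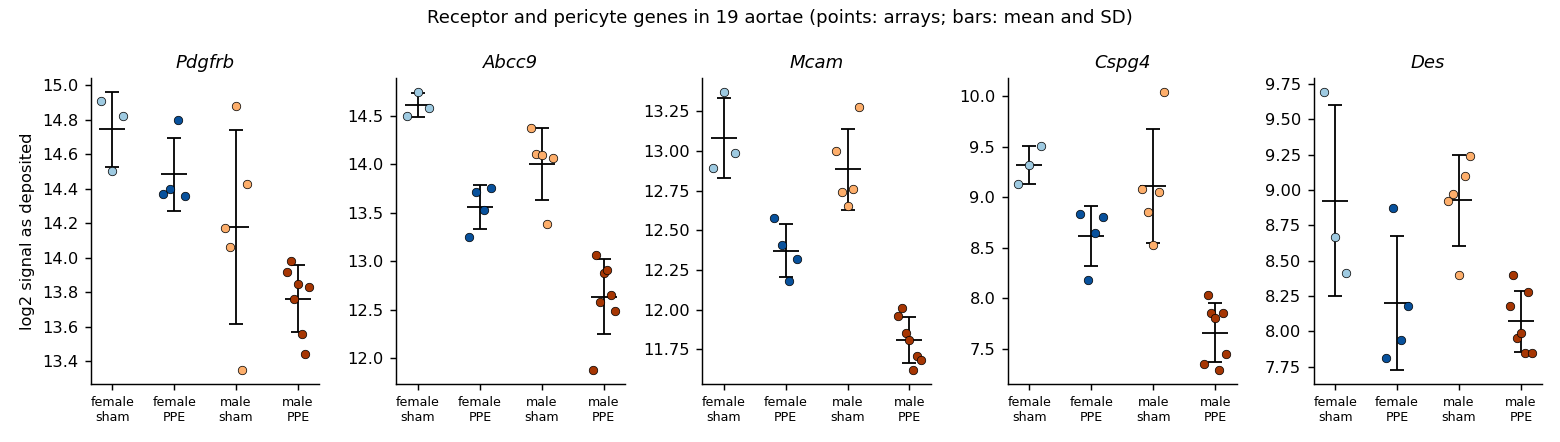
Log2 signal (y axis, its own scale in each panel) of Pdgfrb, Abcc9, Mcam, Cspg4 and Des in each of the 19 arrays by group (x axis), with the mean and SD as bars. PPE arrays lie below all sham arrays of their sex for Abcc9, Mcam and Cspg4, whereas Pdgfrb overlaps, with 1 male sham array at 13.35 below all male PPE arrays.

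**Figure D4:**
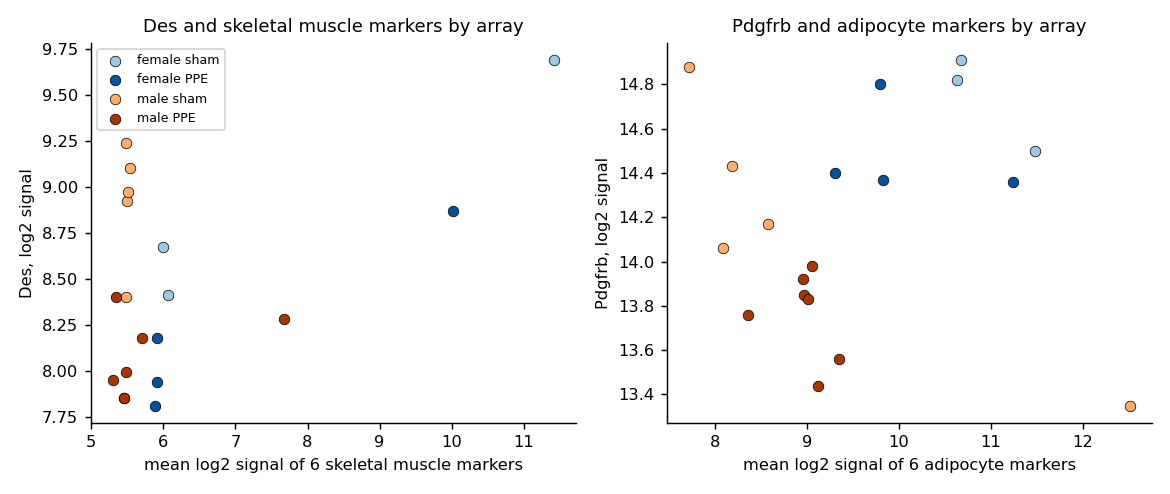
Des against the mean log2 signal of 6 skeletal muscle markers, and Pdgfrb against that of 6 adipocyte markers, with 1 point per array coloured by group. Female sham 1 (11.42, 9.69) and female PPE 2 (10.02, 8.87) lie to the right in the first panel, and male sham 4 (12.52, 13.35) at the lower right of the second.

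These were whole aortic segments, so a smaller share of mural cells in the tissue and less RNA of these genes per mural cell cannot be told apart. The marker counts that follow stand beside 9.98% of all genes called lower and 9.67% called higher in males, and 1.45% and 2.77% in females. Smooth muscle markers were called lower in 7 of 7 members in males (median −1.93) and in 6 of 7 in females (median −1.43, unadjusted p below 0.05 for 7). Their list means ran from 12.86 to 14.03 in male sham and 10.99 to 12.15 in male PPE arrays, and from 13.29 to 13.78 and 11.99 to 12.70 in the female groups, without overlap. Macrophage markers were called higher in 5 of 6 members in males (median 1.56, list means 11.09 to 13.02 in sham and 13.18 to 14.17 in PPE). In females 0 of 6 passed (median 0.76, unadjusted p below 0.05 for 3), with list means of 13.04 to 13.24 in sham and 13.45 to 14.39 in PPE arrays. Endothelial markers were called lower in 3 of 6 members in males (median −0.27) and in 0 of 6 in females (median −0.10, unadjusted p below 0.05 for 3). Fibroblast markers were called lower in 4 of 7 in males (median −0.43) and 2 of 7 in females (median −0.47, unadjusted p below 0.05 for 5). Their list means ran from 14.65 to 15.39 in male sham and 14.57 to 14.88 in male PPE arrays. In females these means were 15.42 in sham and 14.69 to 15.05 in PPE arrays, without overlap. The part of these shifts in the values of the 9 genes was not tested.

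The response to PPE was not shown to differ between the sexes for any of the 9 genes. By the interaction term of the limma fit 0 of 9 were called, against 0.541% of all genes (0.0398% higher and 0.501% lower), and 1 had an unadjusted p below 0.05. That gene was Cspg4, with a male minus female difference of −0.75 ± 0.34 (95% interval −1.46 to −0.03, adjusted p = 0.473). The estimate was also below 0 for the other 8, for instance −0.37 ± 0.19 for Mcam (−0.76 to 0.02) and −0.22 ± 0.37 for Pdgfd (−0.99 to 0.55). These intervals are wide beside the changes themselves. Because the sexes also differ in array medians, sex and array set cannot be told apart in this comparison.

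Genes with values like those of a member were sought by the mean absolute difference, over the 19 arrays, of the log2 value minus the sham mean of the same sex. This measure depends on the size of the change, so genes that change little can lie close together without a shared pattern. The nearest to Pdgfd were Limch1 (0.162), Pkp4 (0.163) and the muscle LIM gene Fhl1 (0.164), and its nearest fellow member was Abcc9 (0.233). For Abcc9 they were Aff2 (0.126), Scara5 (0.142) and Pls3 (0.154), for Mcam Inpp5a (0.112), Zfhx3 (0.131) and Prdm16 (0.132), and for Cspg4 Col18a1 (0.143), Jph2 (0.15) and Mtus2 (0.156). Des lay nearest to the muscle genes Myoz2 (0.208) and Tpm2 (0.219) and to Rbm24 (0.23), though at larger distances than any other member. Pdgfrb lay nearest to Neo1 (0.125), the gelatinase gene Mmp2 (0.128) and Fndc3b (0.131). Pdgfa lay nearest to Rarg (0.0744), Pdgfc to Chsy3 (0.0871) and Pdgfb to Tet3 (0.114). Pdgfa and Pdgfc were each other's nearest member (0.117), as were Abcc9 and Pdgfd, and Mcam and Cspg4 (0.28).

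Other mural genes were read from a list of 15, of which 14 were measured. In males 8 were called lower and 1 higher, beside 9.98% and 9.67% of all genes, with a list median of −0.48 against 0.01 over all genes. Gucy1b1, a subunit of the nitric oxide receptor guanylyl cyclase, fell from 11.33 to 9.42 in males (−1.91 ± 0.21, limma adjusted p = 4.28e-06) and from 12.12 to 10.73 in females (−1.39 ± 0.27, adjusted p = 0.0075). Rgs5, a brake on G protein signalling in pericytes, fell by 1.81 ± 0.22 in males (adjusted p = 1.13e-05) and by 1.12 ± 0.29 in females (adjusted p = 0.0331). Kcnj8 encodes Kir6.1, the pore of the channel that SUR2 regulates, and like Abcc9 it fell in both sexes, by 0.84 ± 0.21 in males (adjusted p = 0.00636) and 1.11 ± 0.27 in females (adjusted p = 0.0244). The 1 gene called higher in males was Steap4 (0.78 ± 0.20, adjusted p = 0.00735), named after its value was seen. In females the list median was only −0.10 against −0.02 over all genes. Of the 14 genes 3 were called lower there and 0 higher, beside 1.45% and 2.77% of all genes. The count of lower calls ran from 1 to 4 with 1 array left out. Among the 3 only Gucy1b1 kept its call in every fit without 1 array. Without female sham 2 adjusted p was 0.155 for Rgs5 and 0.0844 for Kcnj8. With each array centred on its median it was 0.0665 and 0.0546. Both calls were also lost without female sham 1 (0.0633 and 0.0581), female sham 3 (0.103 and 0.108), female PPE 1 (0.0907 and 0.075) or female PPE 3 (0.0823 and 0.0576), and that of Rgs5 without female PPE 2 (0.0729).

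A list of genes of ligand activation, co-receptors and related proteins held 9 members, of which 8 were measured. In males 1 was called higher and 1 lower, beside 9.67% and 9.98% of all genes. In females 0 were called higher and 2 lower, beside 2.77% and 1.45%. Pdgfrl, a secreted protein that resembles the outer part of the PDGF receptors, fell in both sexes, from 11.34 to 10.59 in males (−0.75 ± 0.22, limma adjusted p = 0.0225) and from 12.11 to 10.90 in females (−1.20 ± 0.29, adjusted p = 0.0247). The male call was lost without male sham 1 (0.064), 2 (0.0597), 3 (0.0543) or 5 (0.0627), and the female one without female sham 1 (0.105), 2 (0.0746) or 3 (0.0786) or female PPE 1 (0.0682) or 2 (0.0667). Plat, whose product tPA cuts latent PDGF-C, fell by 1.14 ± 0.23 in females (adjusted p = 0.00975), but not without female sham 1 (0.0613) or 2 (0.0535). In males Plat stood at −0.38 ± 0.18 (adjusted p = 0.165), at −0.54 (0.0262) without male sham 4 and at −0.24 (0.389) without male sham 3. Plau, the gene of urokinase, rose by 0.58 ± 0.18 in males (adjusted p = 0.0279), a call lost without male sham 1 (0.0537) or 4 (0.0858) or male PPE 2 (0.0554), 3 (0.0507) or 6 (0.0572). In females it stood at 0.23 ± 0.23. Furin, Pcsk5, St14, Lrp1 and Sparc passed in neither sex.

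Genes of receptor signalling moved in both directions. Of 24 listed 22 were measured, and in males 6 were called higher and 6 lower (list median 0.00), beside 9.67% and 9.98% of all genes. In females 3 were called higher and 0 lower (list median 0.07, unadjusted p below 0.05 for 8), beside 2.77% and 1.45% of all genes. The adaptor gene Grb2 rose by 0.78 ± 0.10 in males (limma adjusted p = 1.4e-05) and by 0.68 ± 0.13 in females (adjusted p = 0.00627), a call kept in all 19 fits without 1 array. The kinase genes Fyn and Pik3cb rose by 0.73 ± 0.11 and 0.70 ± 0.08 in males (adjusted p = 9.52e-05 and 1.19e-05) and by 0.61 ± 0.14 and 0.44 ± 0.11 in females (adjusted p = 0.0199 and 0.0297). Without female sham 2 the female values were 0.0969 and 0.0635, without female sham 3 0.0845 and 0.132, without female PPE 1 0.067 and 0.0934 and without female PPE 2 0.0542 and 0.0764. The call of Fyn was also lost without female PPE 3 (0.055) and that of Pik3cb without female sham 1 (0.0967) or female PPE 4 (0.055). With each array centred on its median both female calls were lost (adjusted p = 0.0652 for Fyn and 0.119 for Pik3cb). Quantile normalization took that of Pik3cb (0.0585), but not that of Fyn (0.035). With 1 array left out the male counts ran from 5 to 8 higher and 4 to 6 lower, and the female count of higher calls from 1 to 4. After centring each array on its median 3 genes of this list and not 6 were called lower in males. Grb2, Fyn and Pik3cb are also expressed by leukocytes, whose macrophage markers rose in the same male arrays, and the part of those cells was not tested.

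Of 12 genes that restrain the receptor or signalling below it 7 were called higher and 2 lower in males (median 0.50), beside 9.67% and 9.98% of all genes. In females 2 were called higher and 0 lower (median 0.38), beside 2.77% and 1.45%, and the count of higher calls ran from 0 to 3 with 1 array left out. Dusp6, a phosphatase that switches off ERK, rose by 1.05 ± 0.18 in males (limma adjusted p = 0.000316) and stood at 0.84 ± 0.23 in females (adjusted p = 0.0507). The receptor phosphatase gene Ptpn1 rose by 0.90 ± 0.10 in males (adjusted p = 5.36e-06) and the ubiquitin ligase gene Cblb by 0.39 ± 0.09 (adjusted p = 0.00366). In females they rose by 0.53 ± 0.13 (adjusted p = 0.0281) and 0.54 ± 0.12 (adjusted p = 0.0123). Both calls were lost without female sham 2 (0.135 and 0.0594) or 3 (0.108 and 0.076). They were also lost with each array centred on its median (0.0986 and 0.051). That of Ptpn1 was lost without female PPE 1 (0.0858), 2 (0.0733) or 3 (0.0712) and with quantile normalization (0.0663) as well. The call of Dusp6 in females was gained when male sham 3 (0.0493) or 4 (0.0322) was left out, or male PPE 1 (0.0169). It was also gained with the female arrays fitted alone (0.021), with array weights (0.00212), with dim genes filtered out (0.0314) and without male sham 4, male sham 5 and male PPE 1 together (0.00531). The fits without male arrays leave the female difference as it was and alter only the residual variance and the adjustment of p. The 2 that fell in males were Spry1 (−0.37 ± 0.10) and Spry4 (−0.51 ± 0.15), inhibitors of Ras signalling named after their values were seen, and after quantile normalization or median centring 0 were called lower. These genes, too, are expressed in leukocytes.

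Early genes that growth factors induce gave no common direction. Of 11 listed 10 were measured, and 2 were called higher (Ier3 and Myc) and 2 lower (Egr1 and Fosb) in males, beside 9.67% and 9.98% of all genes. With 1 array left out these counts ran from 0 to 2 and from 1 to 2. In females 0 passed by limma (unadjusted p below 0.05 for 0), beside 4.22% of all genes in either direction. Egr1 fell by 0.87 ± 0.22 in males (adjusted p = 0.0092) and stood at 0.20 ± 0.29 in females, where it was 0.45 without female sham 1 and −0.03 without female sham 3. Ier3 rose by 0.79 ± 0.25 in males (adjusted p = 0.029), a call lost without male sham 1 (0.0996), 2 (0.0818) or 4 (0.0729) or male PPE 3 (0.0516) or 7 (0.0514). Fos stood at 0.09 ± 0.35 in males and 0.77 ± 0.45 in females, with adjusted p of 0.907 and 0.497. The male value turned to −0.19 without male sham 4, and the female value was 1.24 without female sham 1 and 0.09 without female sham 3.

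**Figure D5:**
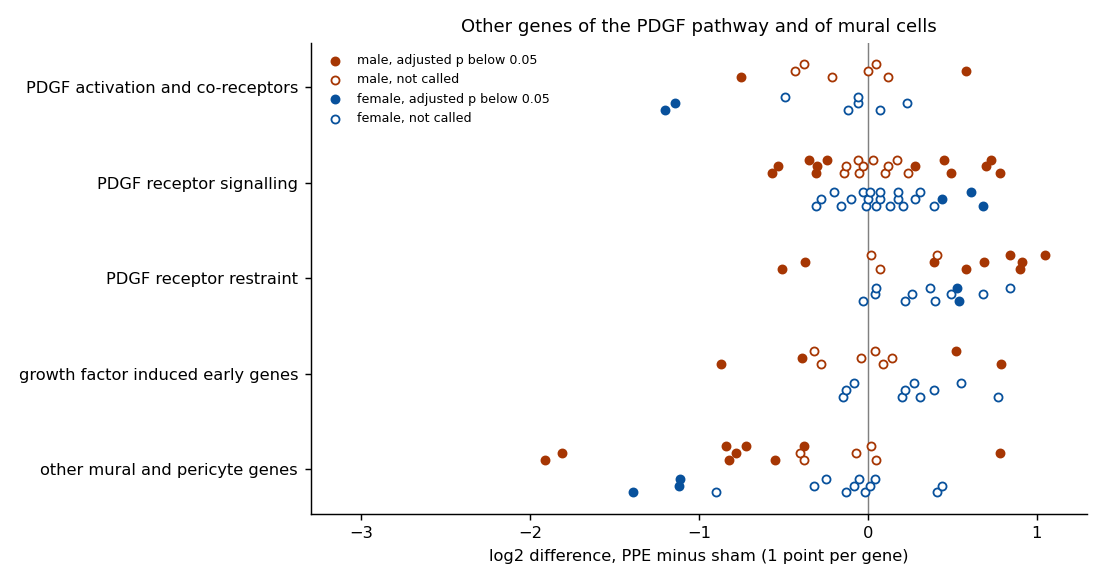
Log2 difference between PPE and sham (x axis) for each measured gene of 5 lists (y axis), in males (brown) and females (blue), filled where the limma adjusted p was below 0.05. Filled points of the other mural genes lie mostly below 0, down to −1.91, those of the restraining genes mostly above 0, up to 1.05, and those of receptor signalling on both sides.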

How the data were processed

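Gene expression of 19 aortae, 1 mouse per array, was taken from the log2 signals that the authors deposited. Per the submitters' processing notes they come from Transcriptome Analysis Console, with mm10 as genome build. How probes were summarised, background-corrected and scaled is not given in the sources used here, and the values were used as deposited.

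Of 65956 probe sets 30604 carried 1 gene symbol, 2146 several and 33206 none in the platform annotation. Symbols of 827 were updated through RefSeq (GRCm38.p6), and the brightest probe set per gene left 30142 genes. Groups came from the sample titles. Group means were fitted with limma 3.58.1 in R 4.3.3 (lmFit, eBayes), with PPE against sham in each sex and the difference between the sexes as contrasts. P-values were adjusted over all genes (Benjamini-Hochberg), and the threshold was 0.05. The fit was tested on simulated data. The labels do not say that replicate numbers are shared, so no block was used. Intervals are at 95%.

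The members, lists and alternatives were chosen with earlier results of these data known. All members were to be named. From each pathway list the 2 genes with the lowest p in males and in females were named with values, and other names were chosen after their values were seen. Up to 3 genes nearest to each member were named, without predicted genes and small RNA genes. Marker lists were read from list means, the mean log2 value of a list's measured genes. The fit was repeated with array weights, a replicate block, an intensity trend and a robust prior, the arrays of 1 sex alone, median centring or quantile normalization, averaged probe sets, and genes above the median level only. It was also repeated with each array left out in turn, and 3 male arrays left out together. These were male sham 4, male sham 5 and male PPE 1, which had the highest array medians of the males (5.83, 5.78 and 5.85). Leaving out female sham 1 and female PPE 2 together was chosen after the data were seen.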

Additional observations from a re-analysis of the deposited data

Results flagged for a closer look

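Pdgfrb in female PPE 3 was 14.80, while the other 3 female PPE arrays lay between 14.36 and 14.40. It stood apart from its group by Dixon's criterion, the only such value among 27 groups of the 9 genes checked. About 1 in 20 groups is expected to stand out by chance.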

How the results depend on the processing

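Of the 9 genes, 7 were called in males (6 to 8 with 1 array left out), 3 in females (0 to 3) and 0 for the difference between the sexes (0 in each). Over all genes 5923 were called in males (4958 to 6365 with 1 array left out), 1273 in females (368 to 1613) and 163 for the difference (0 to 426). With the replicate block 3535, 639 and 0 genes were called, with 5 members in males, where Pdgfc (adjusted p = 0.0589) and Des (0.0776) were lost, and 0 in females. The labels do not say whether replicate numbers pair the arrays, and so few arrays cannot settle it. Same-numbered arrays had correlations of deviations from −0.227 to 0.24 in females and −0.321 to 0.195 in males. Among the sham arrays 1 of 3 in females and 0 of 5 in males matched their own number best. The difference counted 274 genes with median centring, 931 with array weights and 79 without male sham 4, male sham 5 and male PPE 1. Females counted 3951 with array weights, 1970 with only the cohort compared and 2454 without those 3 male arrays. Without female sham 1 and female PPE 2 females counted 204 genes and 0 members, and the difference 0 genes. Of called genes 49.2% were higher in males and 65.6% in females, against 60.3% with median centring in males and 44.1% with quantile normalization in females. In males Pdgfb turned to −0.01 with the replicate block and ran from −0.07 to 0.20 with 1 array left out. Also in males Fos turned to −0.22 with array weights and −0.28 without the 3 male arrays, and ran from −0.19 to 0.26 with 1 array left out. In females Egr1 ran from −0.03 to 0.45 with 1 array left out, and Pdgfc turned to 0.07 without the 2 female arrays. The difference between the sexes turned for Des, to 0.04 with quantile normalization and 0.01 without the 3 male arrays, and ran from −0.51 to 0.13 for Des and from −0.36 to 0.02 for Pdgfrb with 1 array left out. None of these turned values was called, and the cause was not tested. The direction of the 7 male and 3 female calls held in all alternatives run. Signals near the array background were not marked in the deposited values, so dim probe sets could not be told from absent ones.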

Other observations

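The change of a pair of genes within the same array does not depend on how arrays were scaled by a constant. The pairs were chosen after the values were seen, so they are given as a description, without a p. The log2 value of Pdgfd minus that of Pdgfc changed by −1.27 from sham to PPE in males and by −1.28 in females, with a pooled SD of 0.43 and 0.38 between arrays. That of Abcc9 minus Pdgfrb changed by −0.95 in males and −0.79 in females (pooled SD 0.44 and 0.33). For Pdgfb minus Pdgfa the change was 0.48 in males and 0.47 in females (pooled SD 0.35 and 0.23), and for Pdgfb minus Pdgfrb 0.48 and 0.57 (pooled SD 0.49 and 0.28). None of the 4 pairs turned in sign in either sex with quantile normalization, with each array left out, or with the 3 male or the 2 female arrays left out together.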
